A study of Homo sapiens with 6 samples.

Results

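The genes described here are named as hosts of small nucleolar RNAs (snoRNAs) or microRNAs, and nearly all are annotated as long noncoding RNAs. They were chosen by symbol alone: SNHG followed by a number, symbols that start with MIR and end in HG, and GAS5, ZFAS1, EPB41L4A-AS1, DANCR and TUG1. The rule found 117 genes among 63140 in the count table. They fell into 32 snoRNA hosts and 84 microRNA hosts, and TUG1, which is named for neither, was kept apart. RefSeq places a snoRNA or microRNA gene inside every tested member of the 2 classes, and none inside TUG1 or the untested MIR124-1HG, MIR670HG and SNHG27, which stayed in the class of their symbol. GENCODE release 29 types MIR1915HG, MIR9-1HG and SNHG32 as protein-coding. The cells were HEK293T, a transformed line from human embryonic kidney. They were transfected with a miR-34a duplex (3 libraries) or with the AllStars negative control (3 libraries), and RNA was taken 18 h later in both groups. The submitters describe the libraries of a group as biological replicates. The libraries were made with TruSeq RNA v2, which captures polyadenylated RNA and does not keep the strand, so spliced host transcripts were read and mature snoRNAs and microRNAs were not.

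A snoRNA host is transcribed and spliced like an mRNA, and its snoRNAs are trimmed out of the excised introns. Box C/D snoRNAs guide ribose methylation of ribosomal RNA and box H/ACA snoRNAs guide pseudouridylation. The spliced exons that remain are often short-lived, since many are read by ribosomes and degraded by nonsense-mediated decay, and several begin with the oligopyrimidine tract found on ribosomal protein mRNAs. A microRNA host is cut by Drosha within the hairpin, from an intron or an exon, and the released precursor is processed by Dicer. The host RNA level is therefore a readout of transcription and turnover of the host, not of the small RNA it carries.

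The mature microRNAs of the hosts that the results turn on are shown first, with the transfected strand at the top, because the seed decides which transcripts a microRNA pairs with. Sequences come from RefSeq (GRCh38.p14), and capitals mark the seed, bases 2 to 8 from the 5′ end. miR-34a-5p lies in MIR34AHG (chromosome 1, minus strand), miR-210-3p in MIR210HG (chromosome 11, minus strand), and the others in MIR17HG (chromosome 13, plus strand), MIR222HG and MIR503HG (X chromosome, minus strand). Within MIR17HG, miR-17-5p and miR-20a-5p share a seed, and so do miR-19a-3p and miR-19b-3p. Within MIR222HG, miR-221-3p and miR-222-3p share theirs.
miR-34a-5p: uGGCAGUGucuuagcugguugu
miR-210-3p: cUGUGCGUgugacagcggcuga
miR-17-5p: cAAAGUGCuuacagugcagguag
miR-20a-5p: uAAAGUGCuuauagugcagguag
miR-18a-5p: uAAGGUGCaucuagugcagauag
miR-19a-3p: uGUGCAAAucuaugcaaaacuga
miR-19b-3p: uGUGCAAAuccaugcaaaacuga
miR-92a-3p: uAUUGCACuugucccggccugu
miR-221-3p: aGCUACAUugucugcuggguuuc
miR-222-3p: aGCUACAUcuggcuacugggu
miR-503-5p: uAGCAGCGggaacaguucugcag

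Among the tested hosts whose mature sequences were read, which leaves out MIR2052HG, the let-7 family seed, GAGGUAG, was the only one shared between hosts. It occurs in 7 mature microRNAs from 5 hosts (MIRLET7A1HG, MIRLET7IHG, MIR99AHG, MIR4458HG and MIR4500HG). Each host is represented by a single sequence, because the hosts can be set side by side below. The let-7d-5p and let-7f-5p of MIRLET7A1HG are not shown.
let-7a-5p: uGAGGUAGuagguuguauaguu
let-7c-5p: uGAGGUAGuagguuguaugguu
let-7i-5p: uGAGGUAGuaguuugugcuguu
miR-4458: aGAGGUAGguguggaagaa
miR-4500: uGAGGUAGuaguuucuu

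Levels are given as counts scaled to library size (CPM). Library totals ranged from 24728662 to 36650331 counts. Of 17427 genes with enough counts to be tested, 2105 (12.1%) passed an adjusted p of 0.05 in the edgeR quasi-likelihood test, 938 higher (5.38%) and 1167 lower (6.7%) with miR-34a. Over all of them the log2 fold changes had a median of -0.004. Of 9 genes listed as markers of HEK293T cells, 8 were tested, with a median log2 fold change of -0.16; 0 rose and 3 fell with miR-34a, the neurofilament and related genes INA (-0.48 ± 0.07 (SE)), NEFL (-0.32 ± 0.07) and NEFM (-0.22 ± 0.07), with edgeR adjusted p values of 4.7e-05, 0.0041 and 0.037. The remaining marker, PAX8, was listed at 0 in all 6 libraries; whether reads of it were lost in counting was not tested. The 7 markers of blood, liver, muscle and lung cells reported here stayed under 1 CPM in every library. A lower level in these bulk libraries could mean fewer cells that express a gene or less RNA per cell, and these cannot be told apart.

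How many hosts could be measured differed between the classes. Of the 32 snoRNA hosts, 27 passed the filter on low counts, and of the 84 microRNA hosts 28 did. The 5 untested snoRNA hosts were SNHG14, SNHG18, SNHG22, SNHG27 and SNHG28; none had more than 4 counts in a library, and 2 of them had no count in any library. SNHG14, whose transcription unit carries the imprinted snoRNA clusters of the Prader-Willi region, had 8 counts over all 6 libraries. Of the 56 untested microRNA hosts, 22 had no count in any library and none exceeded 12 counts in a library. They include MIR155HG, the host of a lymphocyte microRNA, with 16 counts over all libraries, MIR200CHG, the host of an epithelial microRNA, with 2, and MIRLET7BHG with 41, the most of any untested member. For these members a change was not detectable at this depth.

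Levels per length set the snoRNA hosts at the top. The mean over all 6 libraries was 77.6 CPM per kb of exonic sequence for SNHG29, 64.7 for GAS5, 40.5 for SNHG1, 32.2 for SNHG8 and 29.4 for DANCR. Among microRNA hosts the highest were MIR503HG at 11.9 CPM per kb, MIR17HG at 11.6 and MIR222HG at 9.18, followed by MIR924HG at 4.08. TUG1, a long nuclear and cytoplasmic RNA, stood at 18.1 CPM per kb. The 5 snoRNA hosts with the highest CPM made up 62.6% of the class total, so a summed level mostly follows those genes. RefSeq places 64 snoRNA genes inside the 27 tested snoRNA hosts, with 11 in GAS5, 9 in SNHG1 and a single one in 14 of the hosts. It places 46 microRNA genes inside the 28 tested microRNA hosts, with 6 in MIR17HG.

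No snoRNA host passed the test in either direction with miR-34a (0 of 27 higher and 0 of 27 lower by edgeR at an adjusted p of 0.05, and 0 by DESeq2). The differences were small and mostly negative. The median log2 fold change was -0.16, with a range of -0.27 to 0.50, and 22 of 27 values lay below 0, against 50.7% of all tested genes. At an unadjusted p of 0.05, 11 hosts were lower and 0 higher, against 13.1% lower and 11.3% higher of all tested genes. The count of lower hosts stayed 11 with DESeq2 size factors and under both other filters. It was 9 with upper-quartile factors or a replicate block, 8 with library size only and 7 by the DESeq2 test. Under those last 4 settings 11.6% to 11.9% of all tested genes were lower. In 4 hosts (SNHG1, SNHG5, SNHG6 and SNHG20) all miR-34a libraries lay below all control libraries, and in 0 the reverse was seen; this separation occurred in 14.2% of all tested genes below and 13.1% above. The 95% intervals of 25 of the 27 hosts lay within a 1.5-fold change in either direction.

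**Figure D1:**
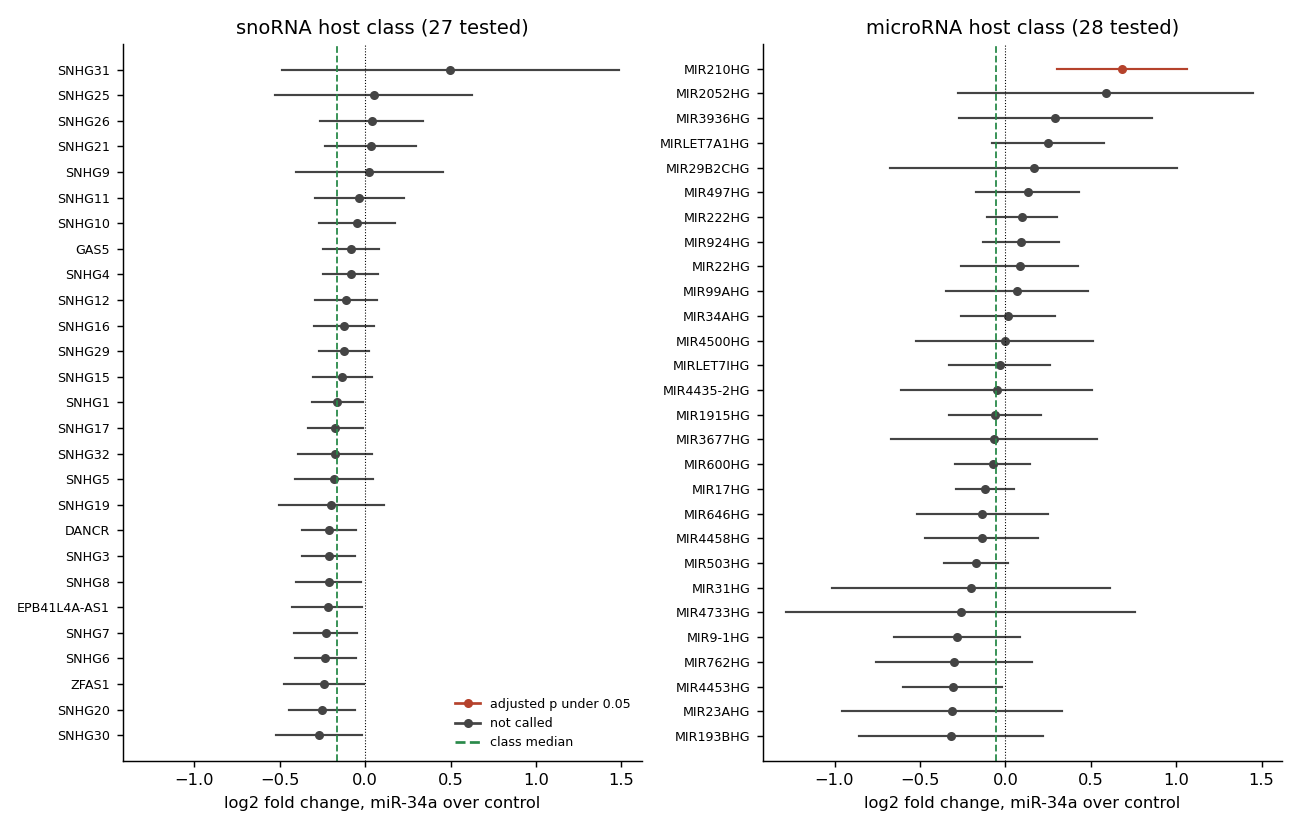
Log2 fold change of each tested snoRNA host (left, 27 genes) and microRNA host (right, 28 genes), miR-34a over control, with its 95% interval from the edgeR fit; the dashed line is the class median. The snoRNA hosts cluster just below 0 around a median of -0.16, while the microRNA hosts spread around -0.06 with wider intervals, and MIR210HG alone passes the test.

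The size of this pattern depended on which libraries were used. The summed level of the snoRNA hosts was 1396, 1278 and 1171 CPM in the miR-34a libraries, against 1409, 1449 and 1384 CPM in the control libraries. The miR-34a replicate 3 library, the deepest of the 6, had the lowest value of 18 of the 27 tested hosts. Without it the median log2 fold change was -0.08 with 21 of 27 values below 0. The number of hosts lower at an unadjusted p of 0.05 was then 1 (3.7%), against 11.4% of all tested genes in that refit. With all libraries the number was 11 (40.7%), against 13.1%. Without miR-34a replicate 1, whose sum lay between the smallest and largest control sums, the median was -0.22. In that refit 13 hosts (48.1%) were lower at an unadjusted p of 0.05, against 12.1% of all tested genes. Without miR-34a replicate 2 or control replicate 2 that number was 5 each (18.5%), against 10.1% and 10.4%. Without control replicate 1 or 3 it was 8 each (29.6%), against 13.5% and 10.7%.

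**Figure D2:**
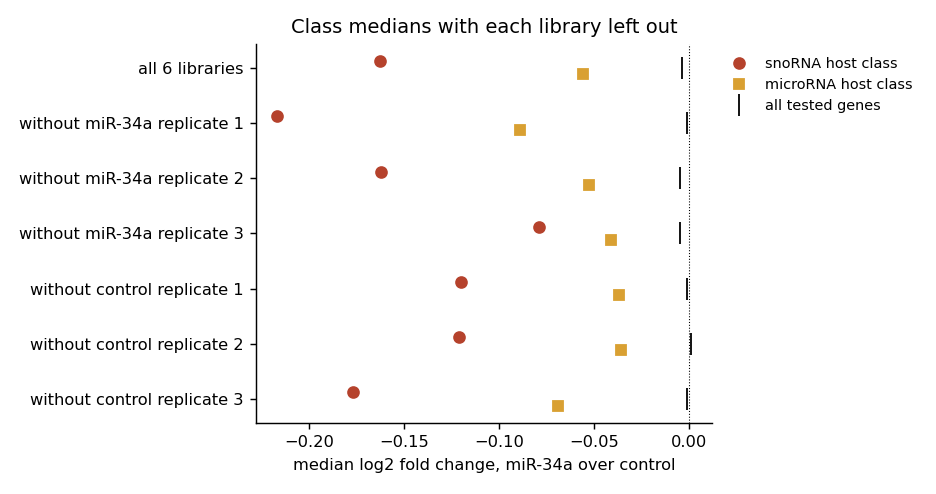
Median log2 fold change, miR-34a over control, of the snoRNA host class (circles), the microRNA host class (squares) and all tested genes (ticks), with all 6 libraries and with each library left out in turn. The snoRNA host median lies between -0.22 and -0.08 and is nearest 0 without miR-34a replicate 3; the median of all tested genes stays within 0.01 of 0.

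Adjusted calls also moved with single libraries. Without control replicate 1, 5 of 27 snoRNA hosts were called lower (DANCR, SNHG6, SNHG7, SNHG8 and SNHG30), against 1394 of 18061 tested genes. Without miR-34a replicate 1, 2 others of the 27 were (SNHG3 and SNHG20), against 1049 of 18086 tested genes. No other left-out library gave a call in the class. With all libraries the lowest adjusted p values were 0.062 for SNHG3, 0.072 for DANCR, 0.079 for SNHG6, 0.084 for SNHG20 and 0.10 for SNHG7 (edgeR quasi-likelihood test, Benjamini-Hochberg over 17427 genes).

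The hosts of box C/D snoRNAs held the most abundant members. SNHG29, which carries SNORD49A, SNORD49B and SNORD65, had 299, 283 and 255 CPM in the miR-34a libraries, against 304, 298 and 311 CPM in the control libraries. The groups overlapped only through miR-34a replicate 1, which lay just above the lowest control library. This gave a log2 fold change of -0.13 ± 0.07 (SE, n = 3 per group), with a 95% interval of -0.27 to 0.02 and an edgeR adjusted p of 0.29. GAS5, a host named for its accumulation in growth-arrested cells, had 256, 226 and 202 CPM with miR-34a, against 229, 263 and 233 CPM in the control. These values interleaved, and the log2 fold change was -0.08 ± 0.08 (SE), interval -0.25 to 0.08, edgeR adjusted p = 0.58.

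SNHG1, which carries the SNORD25 to SNORD31 cluster and SNORD22, had 155.1, 145 and 131 CPM with miR-34a, against 166, 160.1 and 156 CPM in the control. All miR-34a libraries lay below all control libraries, the nearest pair being less than 1 CPM apart. The log2 fold change was -0.16 ± 0.07 (SE), interval -0.31 to -0.02, and the edgeR adjusted p was 0.15. ZFAS1, the host of the SNORD12 family, had 12.3, 10.1 and 11.3 CPM with miR-34a, against 14.97, 12.8 and 12.1 CPM in the control. Its groups overlapped through miR-34a replicate 1 and control replicate 3. Its log2 fold change was -0.24 ± 0.11 (SE), interval -0.48 to -0.01, edgeR adjusted p = 0.19.

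The log2 fold changes of 4 hosts of box H/ACA snoRNAs lay between -0.09 and -0.22. SNHG3, which carries SNORA73A and SNORA73B, had 95.5, 86.0 and 80.4 CPM in the miR-34a libraries, against 104, 105 and 94.8 CPM in the control libraries. The groups met only where miR-34a replicate 1 exceeded control replicate 3. The log2 fold change was -0.21 ± 0.08 (SE), interval -0.37 to -0.06. SNHG4, the host of SNORA74A and SNORA74D, had 77.0, 64.3 and 65.9 CPM with miR-34a, against 78.6, 71.8 and 69.4 CPM in the control. Its highest miR-34a value lay between the control values, with a log2 fold change of -0.09 ± 0.08 (SE), interval -0.25 to 0.08, edgeR adjusted p = 0.56.

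DANCR, which carries SNORA26 and the gene of miR-4449 and is known as a repressor of differentiation, had 65.7, 61.6 and 59.6 CPM with miR-34a, against 64.7, 76.3 and 75.0 CPM in the control. Control replicate 1 fell among the miR-34a values, while the other control libraries lay above all of them. The log2 fold change was -0.21 ± 0.08 (SE), interval -0.37 to -0.06. EPB41L4A-AS1, the host of SNORA13, had 19.0, 17.1 and 14.9 CPM with miR-34a, against 18.7, 20.1 and 20.4 CPM in the control. The groups overlapped through replicate 1 of each, and the log2 fold change was -0.22 ± 0.10 (SE), interval -0.43 to -0.02, edgeR adjusted p = 0.16.

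**Figure D3:**
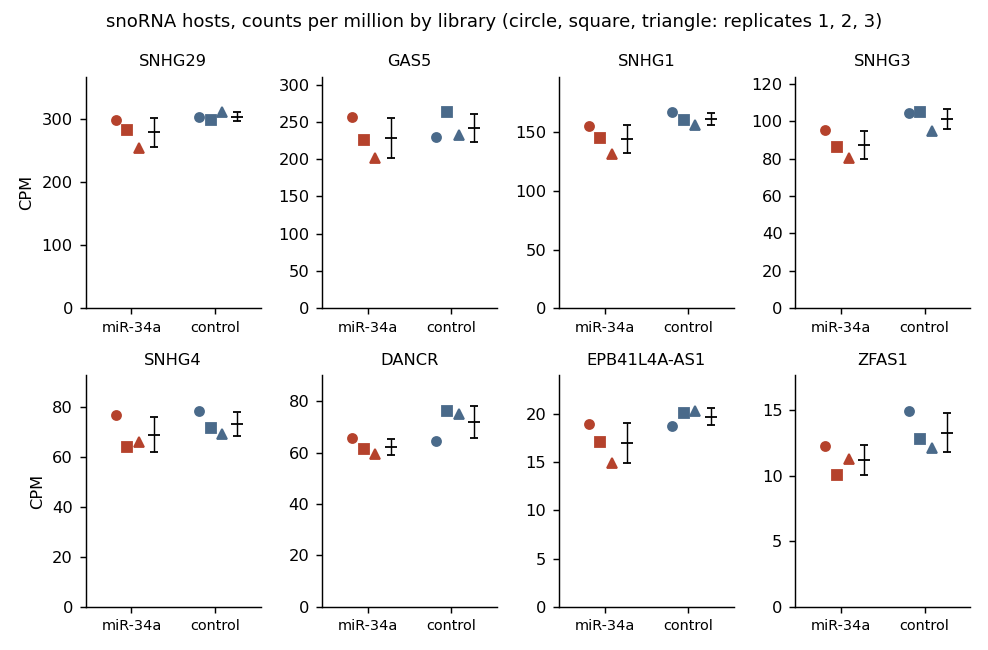
CPM of 8 snoRNA hosts in each library, miR-34a left and control right in each panel; symbols are replicates, and the bar beside them is the mean with its SD (n = 3). In SNHG29, GAS5, SNHG1, SNHG3, DANCR and EPB41L4A-AS1 the lowest of the 6 values is miR-34a replicate 3 (254.7 CPM for SNHG29).

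Some of these counts can hold reads of another gene, since strand was not kept. Of the tested snoRNA hosts, 12 share exonic bases with another tested gene in GENCODE release 29. EPB41L4A-AS1 shares 49.6% of its exonic length with EPB41L4A on the opposite strand, which stood at 1.63, 2.06 and 2.41 CPM with miR-34a, against 2.94, 2.16 and 2.36 CPM in the control. SNHG16 shares 30.6% with an unnamed gene on the opposite strand that averaged 0.38 CPM over all libraries. That gene had a log2 fold change of -1.11 ± 0.51 (SE) and was not called. SNHG7 shares 25.2% with DIPK1B, which had 43.3, 36.4 and 41.9 CPM with miR-34a, against 40.3, 50.7 and 43.8 CPM in the control. SNHG10 shares 20.1% with GLRX5, an iron-sulfur cluster gene that fell with miR-34a (log2 fold change -0.62 ± 0.08 (SE), edgeR adjusted p = 4.4e-06); SNHG10 had a log2 fold change of -0.05 ± 0.11 (SE). SNHG3 shares 5.92% with RCC1 on the same strand, which was measured at 351, 312 and 333 CPM with miR-34a, against 363, 372 and 355 CPM in the control. The other 15 tested snoRNA hosts share no exonic base with a tested gene. As no snoRNA host was called, the calls cannot show an effect of shared reads, which was not tested.

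The snoRNA genes themselves were nearly empty in these libraries. Of the 64 inside tested snoRNA hosts, 51 have a row in the count table, 37 of those had no count in any library, and 4 were tested. SNORA73B in SNHG3 had 4.69, 4.11 and 3.24 CPM with miR-34a, against 4.17, 3.38 and 3.57 CPM in the control. SNORD104 in SNHG25 had 2.07, 2.23 and 2.24 CPM with miR-34a, against 1.80, 2.23 and 2.08 CPM in the control. In both the groups overlapped. SNORD99 and SNORA71B had log2 fold changes of -0.31 ± 0.32 and 0.03 ± 0.33 (SE), and none of the 4 was called. All 46 microRNA genes inside tested microRNA hosts have a row, 39 of them had no count in any library and 0 were tested.

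Among the microRNA hosts 1 of 28 was called, MIR210HG, which rose, and 0 fell (1 at an unadjusted p of 0.05, and 0 by DESeq2), against 5.38% of all tested genes called higher and 6.7% lower. The median log2 fold change of the class was -0.06, with a range of -0.32 to 0.68; 17 values lay below 0 and 11 above. In 2 hosts all miR-34a libraries lay above all control libraries (MIR210HG and MIRLET7A1HG), and in 3 they lay below (MIR503HG, MIR4453HG and MIR9-1HG), against 13.1% of all tested genes above and 14.2% below. The summed level of the class was 191, 195 and 184 CPM in the miR-34a libraries, against 196, 199 and 188 CPM in the control libraries. Precision was lower than for the snoRNA hosts: 15 of 28 intervals lay within 1.5-fold and 23 within 2-fold, and the median width of the 95% interval was 0.75 on the log2 scale, against 0.39 for the snoRNA hosts.

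MIR210HG (chromosome 11, 565660 to 568457, minus strand, GRCh38) carries the gene of miR-210, a microRNA known for its induction in hypoxic cells. It had 4.17, 5.17 and 4.975 CPM in the miR-34a libraries, against 2.13, 3.51 and 3.20 CPM in the control libraries. All miR-34a libraries lay above all control libraries, and control replicate 1 was the lowest of the 6. The log2 fold change was 0.68 ± 0.19 (SE, n = 3 per group), a ratio of 1.61 with a 95% interval of 1.23 to 2.09, and the edgeR adjusted p was 0.015. The counts behind it were 105, 151 and 184 with miR-34a, against 52, 115 and 103 in the control. Without miR-34a replicate 2 the adjusted p was 0.062; over the 13 alternative settings it ranged from 0.0030 to 0.062, with log2 fold changes of 0.52 to 0.83. MIR210HG shares no exonic base with a tested gene, and its neighbour RASSF7 was lower with miR-34a (13.7, 12.4 and 14.4 CPM, against 18.7, 18.8 and 16.1 CPM in the control; log2 fold change -0.40 ± 0.10 (SE), edgeR adjusted p = 0.0093).

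MIR34AHG, the p53-responsive transcript from which cells make their own miR-34a, is not the source of the transfected duplex. It had 8.82, 12.8 and 9.08 CPM with miR-34a, against 10.02, 9.45 and 10.9 CPM in the control. Replicate 2 of the miR-34a group was the highest library and replicate 1 the lowest, so the groups overlapped fully. The 95% interval of the log2 fold change was -0.26 to 0.29.

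MIR17HG, the host of the miR-17-92 cluster and a target of MYC, had 43.1, 38.9 and 34.2 CPM with miR-34a, against 42.5, 41.3 and 42.1 CPM in the control. Replicate 1 of the miR-34a group was the highest library and replicate 3 the lowest; the log2 fold change was -0.12 ± 0.08 (SE), interval -0.29 to 0.05, edgeR adjusted p = 0.42. MIR222HG, the host of miR-221 and miR-222, had 26.9, 28.9 and 23.5 CPM with miR-34a, against 26.6, 26.6 and 20.9 CPM in the control. Replicate 3 was the lowest library of each group, and the log2 fold change was 0.10 ± 0.10 (SE), interval -0.11 to 0.30, edgeR adjusted p = 0.62.

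MIR503HG, the host of miR-503 in an X-linked microRNA cluster, had 17.8, 18.1 and 20.5 CPM with miR-34a, against 21.0, 20.7 and 21.9 CPM in the control. All miR-34a libraries lay below all control libraries by a narrow margin. The log2 fold change was -0.17 ± 0.09 (SE), interval -0.36 to 0.02, edgeR adjusted p = 0.26. TUG1 had 166, 176 and 189 CPM with miR-34a, against 217, 168 and 187 CPM in the control. Its control replicate 1 stood above the other 5 libraries, and the log2 fold change was -0.11 ± 0.08 (SE), interval -0.27 to 0.06, edgeR adjusted p = 0.47; without control replicate 1 it was 0.00.

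**Figure D4:**
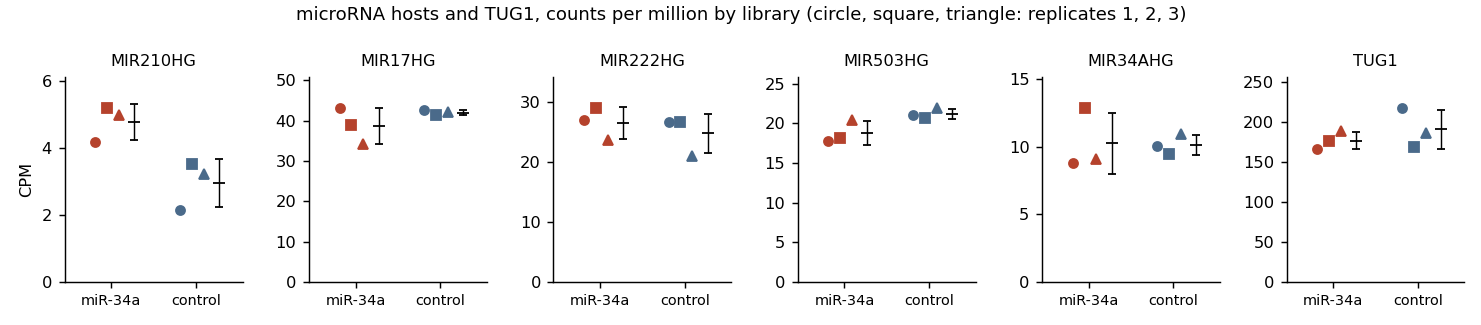
CPM of 5 microRNA hosts and TUG1 in each library, miR-34a left and control right in each panel; symbols are replicates, and the bar is the mean with its SD (n = 3). MIR210HG is the only panel in which every miR-34a value lies above every control value; in MIR503HG every miR-34a value lies below, and the others overlap.

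The 5 hosts that share the let-7 seed had log2 fold changes on both sides of 0. MIRLET7A1HG had 4.69, 4.35 and 4.60 CPM with miR-34a, against 3.64, 3.69 and 4.13 CPM in the control, a log2 fold change of 0.25 ± 0.16 (SE) with an edgeR adjusted p of 0.37. Those of the others were 0.07 ± 0.20 (SE) for MIR99AHG, 0.00 ± 0.25 for MIR4500HG, -0.03 ± 0.14 for MIRLET7IHG and -0.14 ± 0.16 for MIR4458HG, and none was called. The remaining microRNA hosts were mostly low: MIR2052HG and MIR193BHG, with the most extreme uncalled values, 0.59 ± 0.42 and -0.32 ± 0.26 (SE), averaged 0.94 and 1.81 CPM over all libraries. Of the tested microRNA hosts 10 share exonic bases with another tested gene, most of all MIR497HG (38.2%, with C17orf49) and MIR4733HG (29.1%, with NF1, which stood at 120.3 to 147 CPM with miR-34a and 124 to 157 CPM in the control).

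Matches to the miR-34a seed were sought in the longest GENCODE release 29 transcript of each host, on the transcript strand. A longest transcript can retain introns. That of SNHG11 runs unspliced from the RefSeq start to its match, through SNORA71E (chr20:38448083-38448218). Whether spliced SNHG11 RNA holds the match was not tested. The motifs were CACTGCCA (8mer), CACTGCC (7mer-m8), ACTGCCA (7mer-A1) and ACTGCC (6mer); each shorter motif lies within the longer ones, and a transcript took its longest. A 7mer or 8mer occurred in 7 of 27 tested snoRNA hosts (25.9%) and 13 of 28 tested microRNA hosts (46.4%), against 43.1% of all tested genes and 24.6% of tested lncRNA genes. The median of the longest transcripts was 1662 nt for the snoRNA hosts, 2736 nt for the microRNA hosts and 3241 nt for all tested genes. Matches in hosts described here are shown with 30 bases of transcript (GRCh38), capitals marking the match: MIR210HG because it was called, SNHG29 as the most abundant host, SNHG7 and SNHG11 as the only tested snoRNA hosts with a 7mer-m8 and an 8mer, and MIR34AHG as the locus of miR-34a.
MIR210HG, 7mer-A1 at chr11:567346-567352, minus strand: tgcagagctaacttACTGCCAgacggcgac
MIR34AHG, 7mer-A1 at chr1:9180857-9180863, minus strand: gcccattggcacctACTGCCAcatggggta
SNHG29, 7mer-A1 at chr17:16439613-16439619, plus strand: cttagttgaccgtaACTGCCAgagccctgc
SNHG7, 7mer-m8 at chr9:136721646-136721652, minus strand: ggcacagcaaaggcCACTGCCtggacatga
SNHG11, 8mer at chr20:38448371-38448378, plus strand: atgaccagcagagtCACTGCCActcagcca

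The log2 fold changes of the snoRNA hosts with a 7mer or 8mer (-0.23 to 0.04) lay within the range of those without (-0.27 to 0.50). SNHG11, whose 8mer lies in an unspliced stretch, had 15.7, 12.8 and 9.92 CPM with miR-34a, against 13.2, 13.0 and 12.9 CPM in the control. The log2 fold change of SNHG11 was -0.03 ± 0.13 (SE), interval -0.30 to 0.23. Its miR-34a libraries held both the highest and the lowest value. SNHG7, with the 7mer-m8, had 36.4, 31.6 and 31.9 CPM with miR-34a, against 34.9, 44.7 and 37.3 CPM in the control, and a log2 fold change of -0.23 ± 0.09 (SE). The median log2 fold change was -0.14 for the 7 snoRNA hosts with a 7mer or 8mer and -0.17 for the 20 without, and 0.07 for the 13 microRNA hosts with one and -0.07 for the 15 without. Among tested lncRNA genes it was 0.01 for 544 with and 0.02 for 1669 without.

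The starts of the snoRNA hosts were read for the oligopyrimidine tract in RefSeq promoters (GRCh38.p14). The rule was a C at the annotated start followed by at least 4 further pyrimidines on the gene's strand. Shares are of the genes whose start sequence was read, which leaves out the tested hosts SNHG6, SNHG9, SNHG15, SNHG25 and MIR2052HG. The rule was met by 6 of 23 tested snoRNA hosts (26.1%) and 1 of 27 tested microRNA hosts (3.70%). This compares with 7.08% of tested genes and 43 of 62 tested cytosolic ribosomal protein genes (69.4%). A start annotated a few bases away from the true one is missed by this rule. The 6 hosts are shown with 10 bases before the start and 20 from it on, capitals marking the run, because they carry the feature they share with ribosomal protein genes.
SNHG4, chr5:139274091-139274120, plus strand: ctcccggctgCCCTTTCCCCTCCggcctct
SNHG12, chr1:28581854-28581883, minus strand: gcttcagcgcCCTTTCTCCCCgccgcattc
SNHG32, chr6:31834906-31834935, plus strand: cattttagttCTTTTTgcgaagtgggctcg
SNHG5, chr6:85678714-85678743, minus strand: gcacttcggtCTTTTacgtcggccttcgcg
SNHG19, chr16:2155339-2155368, minus strand: ccgcccctgtCTTTTCggggtcgagtccga
ZFAS1, chr20:49278632-49278661, plus strand: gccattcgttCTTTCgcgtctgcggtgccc

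The log2 fold changes of these 6 hosts were -0.09 for SNHG4, -0.11 for SNHG12, -0.18 for SNHG32, -0.18 for SNHG5, -0.20 for SNHG19 and -0.24 for ZFAS1, all within the range of the other snoRNA hosts. None was called.

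Other noncoding genes give a second background. Of 2160 other tested lncRNA genes, 30 rose and 16 fell, with a median log2 fold change of 0.02 and 46.6% of values below 0. The snoRNA hosts had 81.5% below 0 and the microRNA hosts 60.7%. These are descriptions of 6 shared libraries, with no test of the difference between the classes. Values of the other lncRNA genes reached from -1.60 to 2.37, while no tested host of either class went beyond -0.32 or 0.68. These ranges cannot be compared directly, since the other lncRNA genes are far more numerous and were not matched in level.

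**Figure D5:**
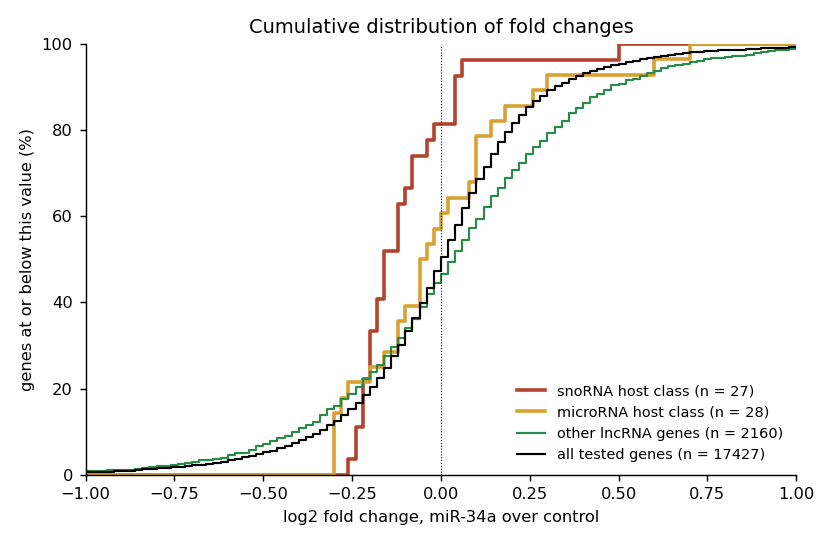
Cumulative percentage of genes at or below each log2 fold change, miR-34a over control, for tested snoRNA hosts (27), microRNA hosts (28), other lncRNA genes (2160) and all tested genes (17427). At 0 the snoRNA host curve has reached 81.5%, while 50.7% of all tested genes lie below 0; the microRNA host curve runs closer to that of all tested genes.

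Genes that act with the hosts were read from lists by role; over all tested genes, 5.38% rose and 6.7% fell, and 11.3% were higher and 13.1% lower at an unadjusted p of 0.05. Of 17 proteins of snoRNA particles and their assembly, 0 rose and 2 fell, with a median log2 fold change of -0.10. At an unadjusted p of 0.05, 1 was higher and 6 were lower, and in 6 all miR-34a libraries lay below all control libraries, a separation seen in 14.2% of all tested genes. NHP2, a core H/ACA protein, had 124, 123 and 115 CPM with miR-34a, against 143, 152 and 155 CPM in the control (log2 fold change -0.31 ± 0.07 (SE), edgeR adjusted p = 0.0023). SNU13, which binds the box C/D fold, had 131, 115 and 122 CPM with miR-34a, against 141, 158 and 151 CPM in the control (-0.29 ± 0.07 (SE), edgeR adjusted p = 0.0073). In both genes all miR-34a libraries lay below all control libraries.

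Of 26 tested protein-coding snoRNA hosts and translation factors with an oligopyrimidine start, 0 rose and 2 fell (1 higher and 3 lower at an unadjusted p of 0.05), with a median of -0.03. The 2 were the initiation factor subunit EIF3H (-0.31 ± 0.07 (SE), edgeR adjusted p = 0.0036) and the elongation factor subunit EEF1D (-0.30 ± 0.08 (SE), edgeR adjusted p = 0.0097). Of 16 factors of nonsense-mediated decay 1 rose, NBAS (0.43 ± 0.07 (SE), edgeR adjusted p = 0.00015), and 0 fell (1 higher and 2 lower at an unadjusted p of 0.05), with a median of 0.01. Of 16 mRNAs known as sensitive to that decay 0 rose and 2 fell (0 higher and 4 lower at an unadjusted p of 0.05), with a median of -0.09; these were ATF4 (-0.24 ± 0.07 (SE), edgeR adjusted p = 0.025), a stress-response transcription factor, and the uridine phosphorylase UPP1 (-0.36 ± 0.12 (SE), edgeR adjusted p = 0.045). Of 16 exonuclease, decapping and exosome genes 1 rose, the decapping enzyme DCP2 (0.25 ± 0.07 (SE), edgeR adjusted p = 0.015), and 0 fell (5 higher and 1 lower at an unadjusted p of 0.05), with a median of 0.05.

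Protein-coding microRNA hosts were listed beside the noncoding ones. Of 28 tested, 3 rose and 7 fell, against 5.38% and 6.7% of all tested genes, with a median log2 fold change of -0.03; the difference from the noncoding hosts was not tested. The 3 with the lowest adjusted p were the small C-terminal domain phosphatases that host the miR-26 family. CTDSPL had 32.3, 29.2 and 29.5 CPM with miR-34a, against 53.2, 51.2 and 54.4 CPM in the control (log2 fold change -0.81 ± 0.08 (SE), edgeR adjusted p = 3.5e-08). CTDSP1 had a log2 fold change of -0.83 ± 0.08 (SE) and CTDSP2 of -0.45 ± 0.07 (SE), with edgeR adjusted p values of 7.9e-08 and 5.7e-05. In all 3 every miR-34a library lay below every control library. None of the 7 genes of nuclear microRNA processing was called (edgeR; 0 at an unadjusted p of 0.05 in either direction), and the RNA helicases DDX5 and DDX17 had log2 fold changes of 0.06 ± 0.07 and 0.09 ± 0.08 (SE).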

How the data were processed

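The authors deposited whole-number counts for each Ensembl gene and library, not normalized. GRCh38 is the build, and edgeR 3.42.4, featureCounts, Subread 2.0.3 and STAR 2.7.11a are the tools, per the submitters' processing notes. The sources used here give neither annotation release nor strand setting, nor how multiply mapped or ambiguous reads were handled. From these counts, filterByExpr (minimum count 10, minimum total 15) kept 17427 of 63140 genes, TMM factors (0.981 to 1.016) scaled them, and edgeR 4.0.16 (R 4.3.3) fitted its quasi-likelihood model to all of them, with a single term for group. Adjustment was by Benjamini-Hochberg over all tested genes; called means an adjusted p under 0.05. CPM uses the TMM library size. Intervals are 95% and come from the fit. P-values measure the spread between these 6 libraries. The chi-square per degree of freedom between libraries of 1 group was 7.64 to 14.3, so none looked like a duplicate.

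Members were matched through a table of Ensembl IDs and symbols; 116 of 117 have a gene in GENCODE release 29, used for positions, exons and transcripts. SnoRNA and microRNA genes inside hosts, mature microRNAs and starts come from RefSeq (GRCh38.p14). Library values are given for each called member, the 5 snoRNA hosts and 3 microRNA hosts with the highest CPM, MIR34AHG and the 5 members named singly in the rule; of each list, up to 3 called genes are named, otherwise the 2 most abundant. Other members named with library values (SNHG7, SNHG11, MIRLET7A1HG) and the genes sharing reads were chosen after their values were seen. The members and lists were chosen with earlier results of these data known. In simulated counts for this comparison (17056 genes tested), changes were planted only in genes with a control mean above 2 CPM. The test recovered 83% of 100 genes changed 1.5-fold and 98% of 100 changed 2-fold, and false calls made up 4.23%. These shares cover neither hosts below that level nor differences as small as the snoRNA host median log2 fold change of -0.16. Each gene was drawn separately, so a shift shared by many genes of a library was not simulated. The lowest mean was 0.32 CPM among tested microRNA hosts and 0.44 CPM among tested snoRNA hosts. Alternatives were 3 other scalings, 2 other filters, DESeq2 1.42.0, a replicate block, and each library left out. In addition, 2 member sets were read from the main fit: members with a small RNA inside, and members sharing no exonic sequence. 1 gene of the marker lists is not reported here.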

Additional observations from a re-analysis of the deposited data

How the results depend on the processing

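The count of 0 snoRNA hosts higher held in every refit. The count of 0 lower held under the 3 other scalings, both filters and DESeq2. With single libraries left out it ranged from 0 to 5. The 1 microRNA host called higher was kept under the same settings and ranged from 0 to 1 with single libraries left out. In every refit 0 microRNA hosts were lower. The member sets were read from the main fit, so their snoRNA host counts of 0 were fixed in advance. The set with an annotated small RNA inside held all 27 tested snoRNA hosts and all 28 tested microRNA hosts. Over all tested genes, leaving out 1 library gave 525 to 1287 higher and 727 to 1394 lower genes. It gave 525 higher without control replicate 2, 606 without control replicate 3 and 604 without miR-34a replicate 2, which also gave the 727 lower. The cause was not tested.

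The log2 fold changes of DANCR and SNHG3 passed without control replicate 1 (-0.28) and without miR-34a replicate 1 (-0.28). That of MIR210HG, 0.63 without miR-34a replicate 2, did not. Class medians, added after the data were seen, ranged from -0.22 to -0.08 (snoRNA hosts) and -0.09 to -0.04 (microRNA hosts) with a library left out. No scaling moved the median of all genes beyond 0.01.

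Same-numbered libraries did not deviate together (correlations -0.03, 0.02 and -0.08, and each correlated best with another number). This gave no sign that the numbers pair the libraries, though so few libraries cannot exclude it. With the replicate block 0 snoRNA hosts and 1 microRNA host were called, and 807 genes rose and 1023 fell. Depth limits the low hosts: the SE of the log2 fold change reached 0.48 among tested snoRNA hosts and 0.50 among microRNA hosts.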

Other observations

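Because miR-210 is induced in hypoxia, 18 genes known for induction by hypoxia were read after MIR210HG had been seen. The list was therefore chosen on these data. CA9, a carbonic anhydrase that marks hypoxic cells, was listed at 0 in all 6 libraries, and 17 genes were tested. Of these, 3 rose and 2 fell with miR-34a, against 5.38% and 6.7% of all tested genes, with a median log2 fold change of 0.14 and 11 values above 0. At an unadjusted p of 0.05, 7 were higher and 2 lower, against 11.3% and 13.1% of all tested genes. The 3 were KDM3A, a histone demethylase (97.0, 99.8 and 105 CPM with miR-34a, against 84.5, 79.4 and 88.5 CPM in the control; log2 fold change 0.26 ± 0.07 (SE), edgeR adjusted p = 0.014), the kinase PDK1 (0.27 ± 0.08 (SE), edgeR adjusted p = 0.031) and ANKZF1 (0.28 ± 0.08 (SE), edgeR adjusted p = 0.022). The 2 that fell were NDRG1 (30.8, 28.9 and 33.3 CPM with miR-34a, against 46.5, 43.8 and 46.1 CPM in the control; -0.55 ± 0.08 (SE), edgeR adjusted p = 1.8e-05) and the transcriptional co-regulator CITED2 (-0.25 ± 0.08 (SE), edgeR adjusted p = 0.041). The uncalled genes with an unadjusted p under 0.05 were BNIP3 (log2 fold change 0.21 ± 0.09 (SE)), BNIP3L (0.22 ± 0.09), P4HA1 (0.22 ± 0.08) and DDIT4 (0.28 ± 0.11). The other uncalled genes lay between -0.10 ± 0.08 (SE; VEGFA) and 0.21 ± 0.11 (EGLN1).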
